A study of Drosophila melanogaster with 6 samples.

Results

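The genes described here are 92 Drosophila melanogaster genes that carry a CG number in place of a name and that gave signal on arrays of grh overexpression embryos while staying dim on arrays of grh mutant and wild type embryos. They were chosen from the deposited log2 values themselves. A gene had to read below 4 on both wild type arrays and both grh mutant arrays and 5 or more on both grh overexpression arrays, and its brightest probe set stood for it. Of 5209 genes with a CG number as their symbol in the array annotation, 92 met the rule, which is 1.77%. Of 6773 genes with any other symbol, 79 met the same thresholds, or 1.17%. All 92 matched an entry in the reference gene table by gene identifier, and 0 had since received a name. Since the rule used these values, the levels of the 92 genes are a description and carry no test.

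Embryos at stage 16, when the epidermis secretes cuticle, were collected from 3 genotypes with 2 arrays each. The altered genotypes were grh overexpression, labelled 69B>grh overexpression, and grh mutant, labelled with the allele grhB37. The control was the w1118 strain, labelled wild type. 69B is a GAL4 driver line active in the embryonic ectoderm. No group carried the driver without grh, so strain background and driver cannot be told apart from grh itself. The labels do not say whether replicates were separate collections, and p-values therefore reflect differences among these arrays alone, some of which may be technical. RNA came from whole embryos, and a higher value from more cells of a type cannot be told apart from one with more RNA per cell.

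Grainy head is a transcription factor of epithelia. In the fly it acts in the epidermis on genes of cuticle formation, epithelial junctions and wound repair. A gene known by its CG number alone is a gene model from the genome annotation that had not been given a name. For such genes the array gives an expression pattern where little else may be at hand. No role is given below for a gene unless its annotated synonyms state one.

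Of 2 grh probe sets, the brighter read 12.27 and 12.38 in grh overexpression, 9.05 and 9.02 in grh mutant, and 7.36 and 7.45 in wild type. The other was dim on all arrays and ran another way, at 2.39 and 2.52 in grh overexpression, 3.52 and 3.54 in grh mutant, and 3.28 and 3.215 in wild type. On the brighter one both altered genotypes were above wild type, so neither probe set checks the mutant label. Array medians lay between 2.99 and 3.16, and replicate arrays correlated across probe sets at 0.9994 or more. Across 8632 tested rows, limma called 36.0% higher and 44.1% lower in grh overexpression than in wild type at an adjusted p under 0.05. With every array centred on its median, 32.8% of the called rows were higher, against 44.9% as deposited. Marker genes of several cell types also differed on the same arrays. All 10 epidermal and cuticle markers and 14 of 15 tested Osiris genes were called higher. Among the Osiris genes, Osi3 reached 4 only on the grh overexpression arrays, so the filter on dim rows fixed its direction. All 9 muscle markers, 6 of 7 hemocyte markers, 6 of 7 neuron markers, 5 of 6 glia markers and both tested fat body markers were called lower. The remaining lists were mixed, with 3 of 5 trachea markers lower and 1 higher, and with 3 of 6 midgut markers higher and 2 lower. The log2 of the summed muscle signal was 14.23 to 14.28 in grh overexpression, 15.55 to 15.58 in grh mutant and 15.11 to 15.14 in wild type. Of 5 germline markers, 2 were tested and both were higher, with a summed log2 of 8.53 to 8.575 in grh overexpression, 5.30 to 5.31 in grh mutant and 6.68 to 6.72 in wild type. The remaining 3 germline markers read below 4 on every array. The part of cell composition in the pattern of the 92 genes was not tested.

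The mean grh overexpression value of the 92 genes ran from 5.10 to 12.10 on the log2 scale, with a median of 6.20. Of them, 42 averaged 5 to 6, 27 averaged 6 to 7, 13 averaged 7 to 8, 7 averaged 8 to 9 and 3 averaged above 9. In grh mutant the group means ran from 2.27 to 3.85 and in wild type from 2.27 to 3.96. The floor of the deposited values, where many dim probe sets lie, was 2.27. For 35 of the 92 genes all 4 grh mutant and wild type arrays lay within 0.1 of that floor, and for 50 all 4 were below 3. A value under 4 is treated as dim, so the increase of each gene is given as a lower bound, the grh overexpression mean set against the higher of 4 and the wild type mean. The bounds ran from at least 2.15-fold to at least 275-fold with a median of 4.60-fold, and 23 genes had a bound of 8-fold or more. Genes with other symbols that met the thresholds had bounds from 2.06-fold to 169.0-fold with a median of 4.63-fold.

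**Figure D1:**
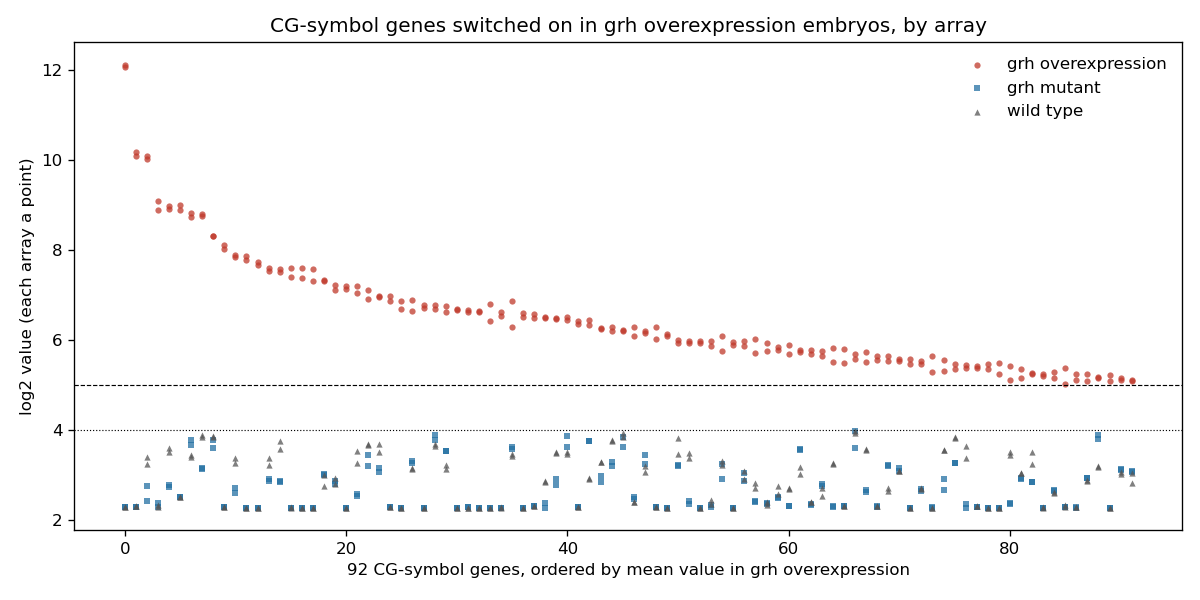
Each point is the log2 value of 1 gene on 1 array, with the 92 genes along the horizontal axis in order of their mean in grh overexpression (circles) and with grh mutant (squares) and wild type (triangles) on the same scale. All grh overexpression points lie above the dashed line at 5 and all others below the dotted line at 4, as the rule requires, and 35 genes sit at the floor near 2.27 on all 4 other arrays.

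Replicate arrays of grh overexpression gave close values for most of these genes. The absolute difference between the replicates had a median of 0.09 and a maximum of 0.56, and it passed 0.3 in 9 genes. The largest difference was in CG13323, which read 6.30 and 6.86 in grh overexpression, against 3.62 and 3.58 in grh mutant and 3.46 and 3.43 in wild type. CG32055 was next, with 6.81 and 6.42 in grh overexpression and 2.27 on each of the grh mutant and wild type arrays. The rule itself keeps a gap between grh overexpression and the other genotypes, so that gap is no check on the replicates.

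The largest bound belonged to CG34227, annotated earlier as CG7738. CG34227 read 12.13 and 12.08 in grh overexpression, 2.28 and 2.28 in grh mutant, and 2.28 and 2.29 in wild type, an increase of at least 275-fold over wild type. It sat close to the floor on all 4 grh mutant and wild type arrays. CG13258 read 10.17 and 10.10 in grh overexpression, 2.28 and 2.28 in grh mutant, and 2.31 and 2.31 in wild type, which is at least 70.4-fold. CG13154 read 10.09 and 10.02 in grh overexpression, 2.41 and 2.75 in grh mutant, and 3.25 and 3.39 in wild type, which is at least 66.5-fold. These 3 genes are the ones that averaged above 9.

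The 7 genes that averaged between 8 and 9 had bounds from at least 16.8-fold to at least 31.8-fold. CG16704 read 9.09 and 8.90 in grh overexpression, 2.38 and 2.29 in grh mutant, and 2.33 and 2.29 in wild type. CG12998 read 9.01 and 8.88 in grh overexpression, 2.52 and 2.51 in grh mutant, and 2.504 and 2.503 in wild type. Both genes read below 3 on every grh mutant and wild type array. CG14105, at 8.99 and 8.91 in grh overexpression, read 2.74 and 2.78 in grh mutant and 3.59 and 3.502 in wild type. CG17298, at 8.79 and 8.76 in grh overexpression, read 3.16 and 3.14 in grh mutant and 3.84 and 3.90 in wild type. In both of these the dim values were higher in wild type than in grh mutant, though all 4 lay under 4. CG7214, at 8.83 and 8.74 in grh overexpression, read 3.67 and 3.78 in grh mutant and 3.46 and 3.41 in wild type. In CG7214 the dim values were higher in grh mutant than in wild type. They came close to the threshold of 4, as did those of CG14960. CG14960, at 8.32 and 8.31 in grh overexpression, read 3.78 and 3.60 in grh mutant and 3.86 and 3.85 in wild type. CG11693 averaged 8.07 ± 0.06 in grh overexpression and 2.28 and 2.29 in grh mutant and wild type (SD, n = 2).

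A further 10 genes complete the 20 with the highest means in grh overexpression, with bounds from at least 9.01-fold to at least 14.7-fold. CG18735, CG5909, CG14218 and CG11841 of these are described with the protease genes. CG4770 read 7.66 and 7.73 in grh overexpression and 2.27 on every grh mutant and wild type array. CG11899 read 7.86 and 7.90 in grh overexpression, 2.59 and 2.71 in grh mutant, and 3.27 and 3.38 in wild type. CG4770 thus lay at the floor outside grh overexpression, and CG11899 lay above it. CG9400 read 7.53 and 7.59 in grh overexpression, 2.92 and 2.87 in grh mutant, and 3.39 and 3.22 in wild type. CG17738 read 7.58 and 7.51 in grh overexpression, 2.84 and 2.87 in grh mutant, and 3.76 and 3.57 in wild type. In CG11899, CG9400 and CG17738 both wild type arrays read above both grh mutant arrays, all of them dim. CG11951 read 7.32 and 7.34 in grh overexpression, 3.02 and 3.004 in grh mutant, and 2.998 and 2.75 in wild type. CG7173 read 7.23 and 7.11 in grh overexpression, 2.87 and 2.79 in grh mutant, and 2.81 and 2.93 in wild type.

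The rule held both grh mutant and wild type below 4 in each of the 92 genes, so no fold or test between these genotypes is given for them. In 2 genes both grh mutant arrays lay within 0.1 of the floor while both wild type arrays read 3 or more. CG13562 read 5.82 and 5.51 in grh overexpression, 2.30 and 2.30 in grh mutant, and 3.24 and 3.26 in wild type. CG30105 read 5.44 and 5.38 in grh overexpression, 2.27 and 2.35 in grh mutant, and 3.64 and 3.37 in wild type. The converse, floor values in wild type with 3 or more in grh mutant, occurred in 0 of the 92 genes. Above the floor, dim values also ran that way. CG6660 read 3.77 and 3.76 in grh mutant and 2.92 and 2.94 in wild type. CG13272 read 3.80 and 3.89 in grh mutant and 3.17 and 3.20 in wild type. The share over all genes was not taken, so no direction is read from these counts.

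The thresholds fall within a continuous spread of genes. The genes just inside the upper threshold were CG7079, CG12942 and CG33337, whose lower grh overexpression arrays read 5.03, 5.10 and 5.10. Just outside it were CG14937, CG13599 and CG30356, at 4.99, 4.98 and 4.94. On the lower threshold, the highest grh mutant or wild type value was 3.98 in CG8460, 3.93 in CG13875 and 3.90 in CG17298, which were inside. CG17260, CG7730 and CG3457, at 4.05, 4.09 and 4.10, were outside although both grh overexpression arrays passed 5. All 92 genes were called higher in grh overexpression than in wild type and than in grh mutant, where 36.0% and 42.9% of all tested rows were called higher. The rule fixed this, and nothing is read from it.

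**Figure D2:**
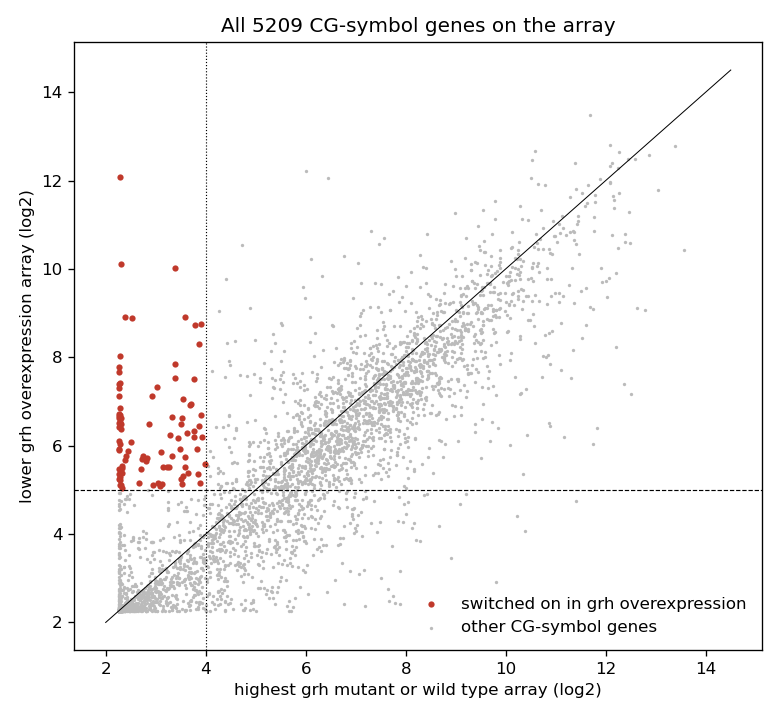
Each of the 5209 CG-symbol genes is a point, with the lower of its 2 grh overexpression arrays on the vertical axis and the highest of its grh mutant and wild type arrays on the horizontal axis, both in log2 units. The 92 genes that met the rule lie in the upper left corner bounded by the lines at 5 and 4, and grey points continue without a gap across both lines.

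Applied with the genotypes exchanged, the same thresholds picked fewer genes. With signal in grh mutant and dim values in the other genotypes there were 22 CG-symbol genes, and with signal in wild type there were 4, against 92 for grh overexpression. Dim values in grh overexpression with 5 or more in both other genotypes were found in 23 CG-symbol genes. The corresponding numbers were 12 for genes dim in grh mutant and 6 for genes dim in wild type. Among genes with other symbols the counts on in grh overexpression, grh mutant and wild type were 79, 23 and 2. Among them 14 were dim in grh overexpression, 16 in grh mutant and 4 in wild type, so the order of the dim counts differed from that of the CG-symbol genes. These are counts from one set of arrays with no test of their difference.

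Of the 92 genes, 9 carry a serine protease number among their synonyms in the gene table, which is 9.78%. Of all 5209 CG-symbol genes, 172 carry one, or 3.30%. In this numbering SP stands for a serine protease and SPH for a serine protease homologue that lacks protease activity, and a leading c marks a clip domain. Clip-domain proteases act in chains in the hemolymph, where each cleaves the next, and such chains lead to melanin deposition and to activation of the Toll ligand. The group was noticed after the values were seen, so it has counts and no test.

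CG18735 (SP22) read 7.78 and 7.87 in grh overexpression and 2.27 on each grh mutant and wild type array. CG5909 (SP8, with a clip domain) read 7.59 and 7.41 in grh overexpression, 2.27 and 2.27 in grh mutant, and 2.27 and 2.29 in wild type. CG14218 (SPH211) read 7.60 and 7.38 in grh overexpression, 2.27 and 2.27 in grh mutant, and 2.27 and 2.28 in wild type. All 3 were at the floor in the other genotypes, with bounds of at least 14.2-fold, 11.3-fold and 11.2-fold. CG11841 (SP45) read 7.58 and 7.30 in grh overexpression and CG11842 (SP68) 6.79 and 6.71, and both were at 2.27 on every other array. CG13744 (SP67, with a clip domain) read 6.43 and 6.37 in grh overexpression, 2.29 and 2.29 in grh mutant, and 2.29 and 2.30 in wild type. The lowest bounds belonged to CG9649 (SP55), at 5.59 and 5.47 in grh overexpression, and CG9631 (SP60), at 5.38 and 5.43, with bounds of 2.89-fold and 2.65-fold. CG17572 (SPH64, with a clip domain) stood apart in its dim values, which were 3.24 and 2.92 in grh mutant and 3.32 and 3.23 in wild type, against 6.10 and 5.76 in grh overexpression. Of the 9 genes, 3 thus have a clip domain in their synonym and 2 are homologues.

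Serine protease genes with names showed the same on and off values in 3 cases. Sp212 read 8.34 and 8.25 in grh overexpression, 2.60 and 2.63 in grh mutant, and 2.60 and 2.62 in wild type. The gene spirit, which encodes a clip-domain protease of the Toll cascade, read 6.49 and 6.30 in grh overexpression, 2.60 and 2.61 in grh mutant, and 2.89 and 2.78 in wild type. The gene mas, which encodes a clip-domain homologue needed for muscle and axon attachment, read 5.55 and 5.44 in grh overexpression, 2.68 and 2.67 in grh mutant, and 2.63 and 2.67 in wild type.

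Protease genes that did not meet the thresholds give values the rule did not use. Of 232 genes on the array with such a synonym, 129 read below 4 on all 6 arrays. A further 75 were outside the rule and reached 4 on at least 2 grh mutant or wild type arrays, so their direction was not fixed by the filter. Of these, 36 were called higher in grh overexpression than in wild type, or 48.0%, against 33.2% of all rows tested under the same condition. By at least 2-fold the count was 18, or 24.0%, against 9.86%. Called falls numbered 32, or 42.7%, against 46.1%. Against grh mutant the shares were near the background, with 30 higher (40.0%, against 40.5%) and 34 lower (45.3%, against 45.6%). The largest increase over wild type among the 75 was in SPE, the Spätzle-processing enzyme that cleaves the Toll ligand. It read 10.61 and 10.58 in grh overexpression, 6.10 and 5.97 in grh mutant, and 6.40 and 6.42 in wild type, a log2 difference of 4.18 ± 0.06 from wild type (SE, limma adjusted p = 1.32e-13). The gene grass, whose product acts upstream of SPE, read 9.12 and 9.06 in grh overexpression, 5.09 and 5.08 in grh mutant, and 5.84 and 5.95 in wild type (log2 difference 3.20, limma adjusted p = 2.32e-12). In both genes the grh overexpression arrays were above all other arrays. By size of increase, CG9372 lay between SPE and grass, with a log2 difference of 3.20 from wild type. Also among the 75, flz read 7.04 and 7.03 in grh overexpression, 4.84 and 4.69 in grh mutant, and 3.26 and 3.31 in wild type. Its wild type values are dim, so its increase over wild type is given as a bound, at least 8.20-fold. Not every such gene rose over wild type. Hayan (SP31, with a clip domain) read 7.93 and 7.83 in grh overexpression, 7.62 and 7.68 in grh mutant, and 7.98 and 7.96 in wild type. Its difference from wild type did not pass (log2 difference -0.09, limma adjusted p = 0.164). Against grh mutant it was called higher in grh overexpression (log2 difference 0.23, limma adjusted p = 0.00257). The gene psh, another protease upstream of SPE, is not among the 75, since it passed the filter through the grh overexpression arrays. It read 6.93 and 6.84 in grh overexpression, 3.73 and 3.88 in grh mutant, and 4.05 and 3.95 in wild type, given as values with no test. Among the falls, CG34290 (SP245) read 2.45 and 2.56 in grh overexpression, 7.77 and 7.79 in grh mutant, and 7.72 and 7.59 in wild type. The genes in this paragraph were named after their values were seen.

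**Figure D3:**
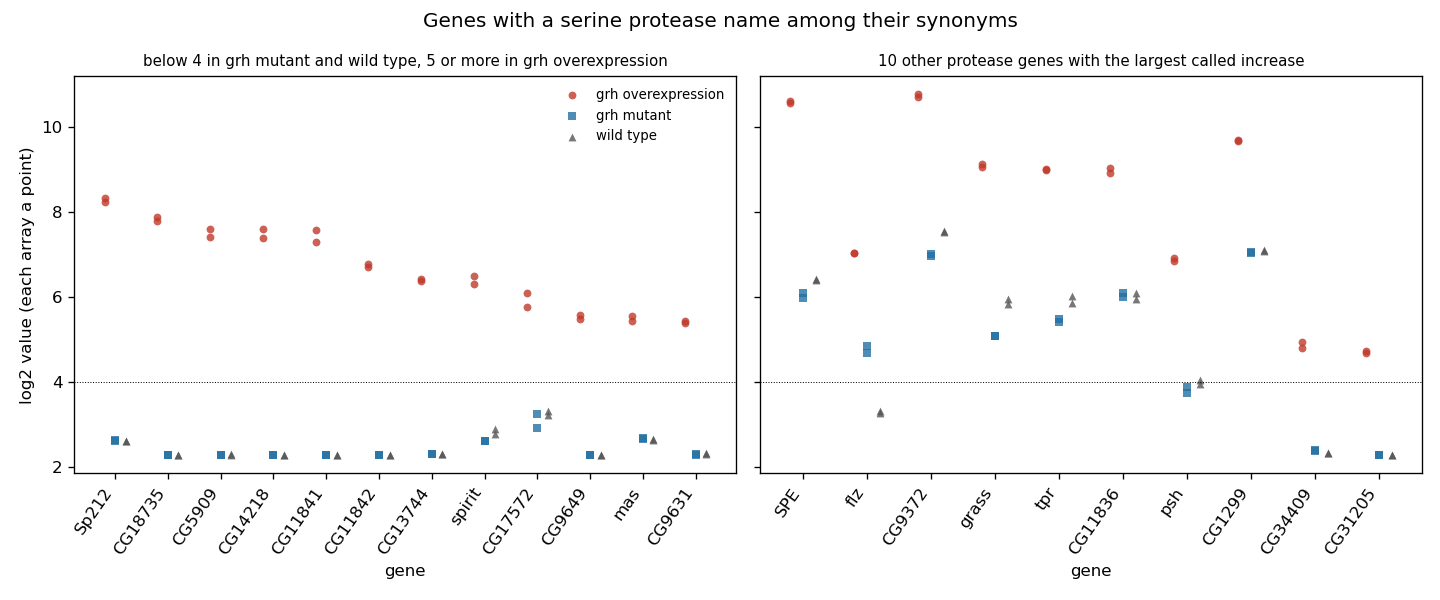
Points are log2 values of single arrays for genes with a serine protease synonym, with grh overexpression left of grh mutant and wild type for each gene. The left panel holds the 12 genes that met the thresholds (9 with a CG symbol and Sp212, spirit and mas), and the right panel holds the 10 other protease genes with the largest called increase over wild type, led by SPE. For 3 of these 10 (psh, CG34409 and CG31205) the direction was fixed by the filter, which they passed through the grh overexpression arrays.

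In the order of protein-coding genes along the chromosomes, 9 of the 92 genes lay directly beside another of them, in 4 groups. CG31189, CG31207 and CG7079 formed a run of 3. CG31189 and CG31207 share the older identifier CG7096, under which they had been annotated as 1 gene model. CG31189 read 6.60 and 6.52 in grh overexpression, CG31207 read 5.35 and 5.46, and CG7079 read 5.38 and 5.03. On the grh mutant and wild type arrays these 3 genes lay between 2.27 and 2.33. CG12278 and Jhbp15, the genes next to it, stayed at 2.27 on all 6 arrays.

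The protease genes CG11841 and CG11842 were neighbours, and CG11843, another protease gene (SP43) beside them, read 4.05 and 4.27 in grh overexpression and 2.27 on all other arrays, below the threshold of 5. On the other side CG11837 read 4.505 and 4.42 in grh overexpression, 4.32 and 4.499 in grh mutant, and 4.604 and 4.57 in wild type, a difference from wild type that did not pass (limma adjusted p = 0.201). CG13323 and CG13324 were neighbours, and CG13324 read 6.63 and 6.54 in grh overexpression, 2.27 and 2.27 in grh mutant, and 2.27 and 2.28 in wild type. The next gene, Drl-2, which encodes a receptor tyrosine kinase, differed in pattern, with 2.63 and 2.52 in grh overexpression, 5.53 and 5.56 in grh mutant, and 3.05 and 2.82 in wild type. CG10182 and CG33337 formed the last pair, with 5.32 and 5.56 and with 5.10 and 5.21 in grh overexpression.

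Allowing 1 gene between members added the pair CG14218 and CG14219. CG14219 read 5.64 and 5.30 in grh overexpression and 2.27 to 2.29 elsewhere. CG14204, which lies between them, read 3.72 and 3.92 in grh overexpression and 2.27 on the other arrays, so it remained dim. CG14205, on the far side, was measured in every genotype, at 7.16 and 7.35 in grh overexpression, 5.57 and 5.59 in grh mutant, and 5.41 and 5.29 in wild type (log2 difference from wild type 1.91, limma adjusted p = 1.13e-09). A similar stretch held CG9649, CG31326, CG33109, Sp212 and CG9631, where the outer genes and Sp212 passed the thresholds while CG31326 and CG33109 read at most 3.003 on any array.

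**Figure D4:**
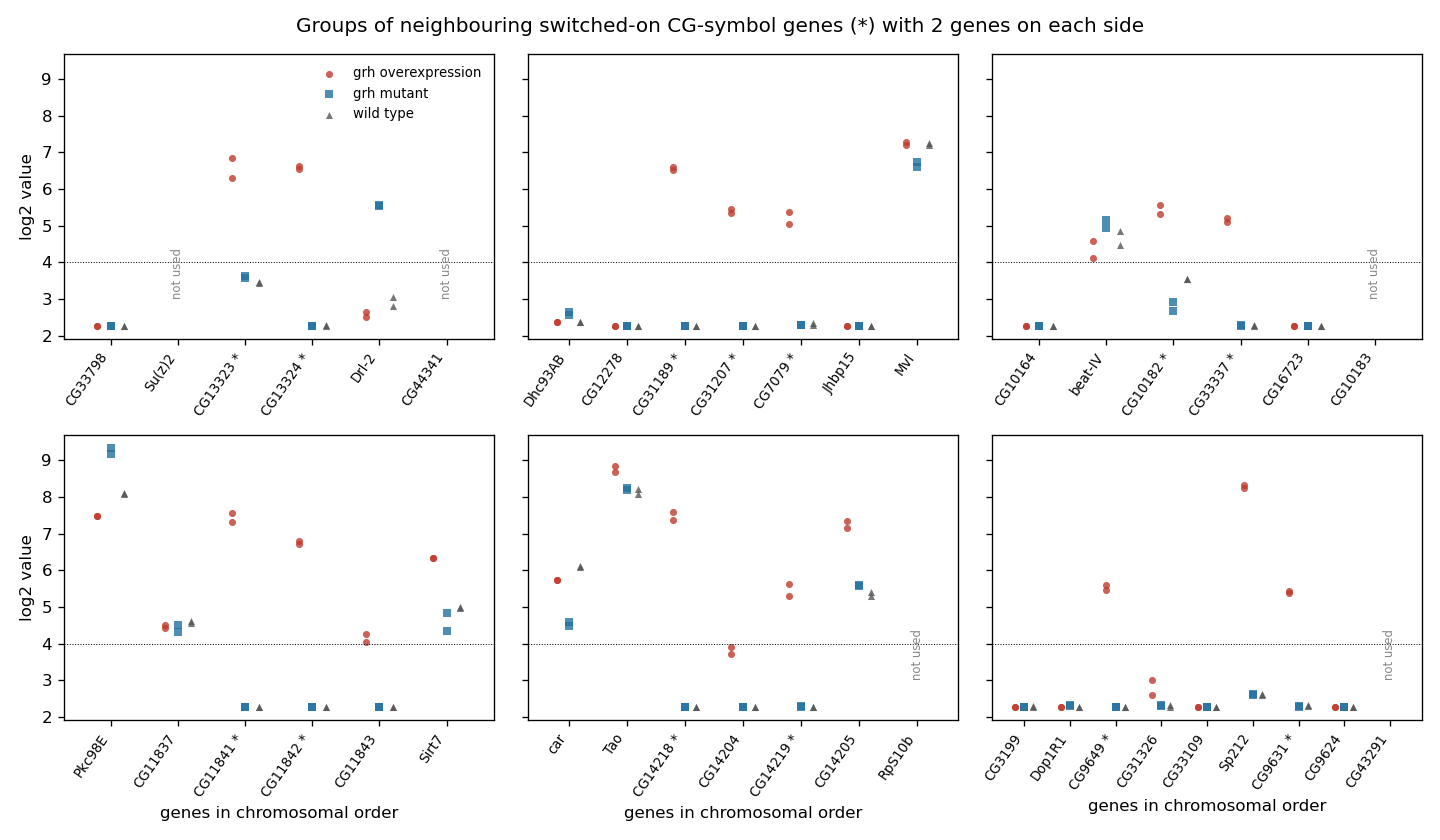
Log2 values by array are shown for genes in chromosomal order in 6 stretches with switched-on CG-symbol genes (marked with *), with 2 genes on each side and with grh overexpression left of grh mutant and wild type. Some genes that are not among the 92, such as CG11843, CG14204, Sp212, CG14205 and Sirt7, also read higher in grh overexpression than on every other array. The dotted line marks 4, and "not used" marks genes with no usable probe set.

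The genes that flank the 92 give a measurement that the rule did not use. There were 173 such genes that were not themselves among the 92, of which 158 were on the array and 94 were tested. Of the 94, 45 were called higher in grh overexpression than in wild type and 33 lower, that is 47.9% and 35.1%, against 36.0% and 44.1% of all tested rows. Called increases of at least 2-fold numbered 29, or 30.9%, against 13.1%. The median log2 difference was 0.10, against -0.08 over all tested rows. In 9 of the 94 the direction was fixed by the filter, since they passed it through the grh overexpression arrays. Among the 85 that passed through the other arrays, 36 were called higher (42.4%, against 33.2%) and 20 were higher by at least 2-fold (23.5%, against 9.86%). Against grh mutant, 50 of the 94 were called higher in grh overexpression, or 53.2%, beside 42.9% of all tested rows. The 50 include the 9 genes whose direction the filter fixed, which raise this share, and the share over all rows holds such rows too. In grh mutant against wild type the 94 flanking genes had 34 higher and 36 lower, 36.2% and 38.3%, beside 36.3% and 44.6% of all rows. The same 9 genes are among these 94, and they were dim on most or all grh mutant and wild type arrays. Only CG17359 of the 9 was called here, as lower and on dim values, so including the 9 lowers both shares. All rows hold such rows too, and their share without them was not taken. No difference from all rows is therefore read in this comparison. Of the 173 flanking genes, 25 overlap the member they flank. Whether probe sets of overlapping genes read each other's transcripts was not tested.

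The following flanking genes with large changes were named after their values were seen, and they stand for no class of genes. Osi12, of the Osiris family of cuticle-forming cells, lies beside CG15597, which read 6.03 and 6.29 in grh overexpression and 2.28 on every other array. Osi12 read 10.13 and 10.11 in grh overexpression, 3.84 and 3.54 in grh mutant, and 4.22 and 4.42 in wild type. Both genes were thus high on the same 2 arrays. The chitinase gene Cht5 lies beside CG9312 and read 10.09 and 10.10 in grh overexpression, 7.48 and 7.58 in grh mutant, and 5.09 and 4.97 in wild type. CG9312 itself read 5.65 and 5.76 in grh overexpression, 2.75 and 2.80 in grh mutant, and 2.53 and 2.72 in wild type. The cytochrome P450 gene Cyp303a1, beside CG13258, read 10.24 and 10.23 in grh overexpression and 2.27 on all other arrays, so this pair met the thresholds together. The sulfotransferase gene St2, beside CG8420, read 10.64 and 10.62 in grh overexpression, 2.30 and 2.30 in grh mutant, and 4.40 and 4.46 in wild type. Protease genes were also flanks, among them grass beside CG5909, tpr beside CG18735 and CG8172 beside CG13744. So were psh beside CG15046 and Sp212 beside CG9631, whose direction the filter fixed. Other flanks fell, among them CG15546 beside CG15545, at 5.11 and 5.09 in grh overexpression, 7.96 and 7.97 in grh mutant, and 7.80 and 7.68 in wild type (log2 difference -2.64, limma adjusted p = 8.64e-12). The sarcomere gene Obsc, beside CG4324, fell by 1.96 log2 units, and all 9 muscle markers were called lower on the same arrays.

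**Figure D5:**
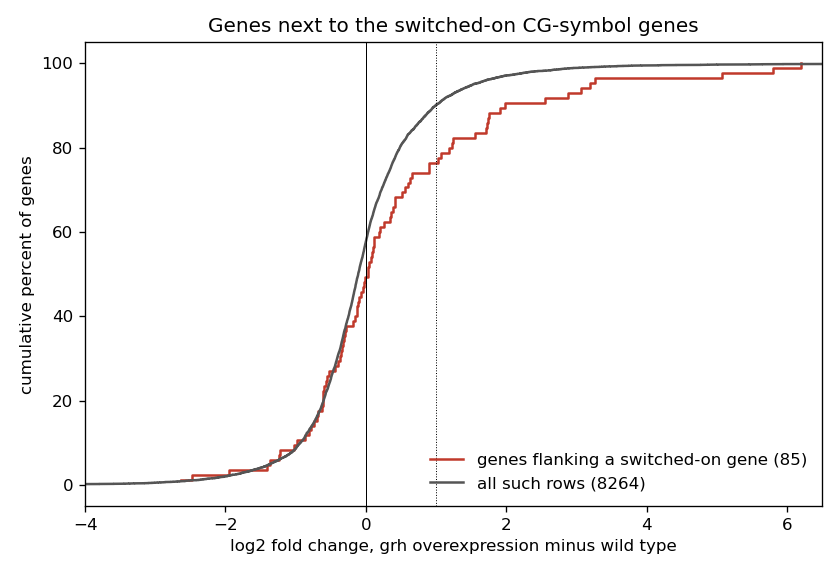
The curves give the cumulative percent of genes against the log2 fold change of grh overexpression minus wild type, for 85 genes that flank one of the 92 and for all 8264 rows that, like them, reached 4 on at least 2 grh mutant or wild type arrays. The dotted line marks 2-fold, which 23.5% of the flanking genes and 9.86% of all such rows passed as called increases, and 28 of all such rows lie outside the horizontal axis.

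A second probe set with the same symbol existed for 5 of the 92 genes, and 0 of the 5 met the thresholds. For CG9400, CG13023 and CG42331 the second probe set stayed at 2.27 on all 6 arrays, and for CG42399 it lay between 2.27 and 2.29. For CG32241 it read 4.48 and 3.96 in grh overexpression, 2.84 and 2.83 in grh mutant, and 2.84 and 2.83 in wild type. The brightest probe set of CG32241 read 5.28 and 5.16 in grh overexpression. In 4 genes, then, the pattern rests on 1 of their 2 probe sets. For 4 others (CG4678, CG34196, CG34002 and CG9664) the probe set is of a type that can read more than 1 transcript, so their values may belong in part to another gene.

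The 79 genes with other symbols that met the thresholds made up 1.17% of such genes on the array. By family, counted after these genes were known, they included 9 of 95 cuticle protein genes, among them Cpr64Ac and Fcp3C, 3 of 12 alkaline phosphatase genes and 4 of 83 cytochrome P450 genes. Also present were 3 of 8 Bomanin genes, which encode peptides secreted on Toll activation, and 3 of 27 serpin genes, which encode protease inhibitors. Odorant binding protein genes gave 2 of 47, glutathione S-transferase genes 2 of 34 and Osiris genes 1 of 23. The 10 with the highest values in grh overexpression were Cpr64Ac, Fcp3C, Alp9, Cyp303a1, Arr2, Osi3, Alp1, dyw, Jhbp3 and GNBP3, with bounds from at least 20.2-fold to at least 169.0-fold. GNBP3, which encodes a receptor for fungal glucans, averaged 8.34 ± 0.12 in grh overexpression, 2.55 in grh mutant and 2.505 in wild type (SD, n = 2).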

How the data were processed

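Expression was measured on 1-colour Affymetrix arrays of biotin-labelled material from whole stage 16 embryos, 6 arrays in 3 genotypes. The authors deposited 1 log2 value per probe set and array for 18952 probe sets; that the scale is log2 and that genes were not centred was read from the values. Per the submitters' processing notes the tools include GCRMA and MAS5, with no role stated for either. The values were used as deposited. Precision is limited by having 2 arrays per genotype.

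Probe sets took symbols from the platform annotation: 13647 had 1 symbol, 402 several and 4720 none, and 183 controls were left out. The brightest probe set stood for a gene. The 8632 of 17104 rows that reached 4 on 2 or more arrays were fitted with limma 3.58.1 in R 4.3.3 (3 group means, eBayes with an intensity trend, two-sided, Benjamini-Hochberg). The fit was tested on simulated data. Neighbours and synonyms came from the reference gene table of the Release 6 plus ISO1 MT assembly; no source used here names the build of the probe sets, so no positions are printed. Serine protease genes were those with a synonym of the form SP or SPH plus a number, with or without a leading c; 10 genes of another kind that share such a synonym were left out.

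The members, lists and tests were chosen with earlier results of these data known. The genes named were the 20 brightest members, those next to a threshold or to another member, and those with a second probe set. The 10 brightest of the other genes that met the thresholds were also named. Further names, among them CG32055, CG13562, CG30105, CG6660 and CG13272, were chosen after their values were seen. Exact permutation of 2 arrays against 2 cannot reach a p under 0.05, so none was run.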

Additional observations from a re-analysis of the deposited data

Results flagged for a closer look

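Probe sets outside the rule also carried the pattern. Of 4720 probe sets with no symbol in the annotation, 14 met the same thresholds, with grh overexpression means from 5.07 to 8.99, and 0 had signal in wild type and dim values in both other genotypes. Of 402 probe sets with several symbols, 4 met the thresholds, with means from 5.09 to 6.24, against 0 with signal in wild type alone. No gene was assigned to them.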

How the results depend on the processing

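Requiring 6 or more in grh overexpression left 50 CG-symbol genes and 43 with other symbols. Raising the lower threshold to 4.5 gave 121 CG-symbol genes and 121 others, while 3.5 gave 66 and 62. Median centring gave 89 and quantile normalization 88, all among the 92. Leaving out 1 array gave 92 to 99 CG-symbol genes and 79 to 83 others. This only removes a condition of the rule, so the counts could not fall and no stability is read from them. With updated symbols the 92 were the same genes. Without the 4 probe sets that can read several transcripts, 88 remained, and the 9 protease genes became 6 at the upper threshold of 6 and 10 at the lower threshold of 4.5 (these settings were chosen after seeing the data). For the flanking genes no share of those tested was taken at other settings. Flanking genes called higher numbered 38 with median centring, 42 with quantile normalization and 56 with no filter on dim rows. Without those overlapping a member, 39 were called higher. With the replicate number as a block, 45 were called higher and 7127 rows in all differed between grh overexpression and wild type, against 6915 without it; the labels do not say that the numbers pair the samples, and replicate differences correlated between genotypes at 0.136 to 0.245. Planned comparisons of promoter motifs and protein starts were not run, since no sequences were used here. Values under 4 give bounds, not levels.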
